A study of Saccharomyces cerevisiae with 4 samples.

Results

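The genes described here code for proteins of the yeast mitochondrial ribosome. They are the 65 features, of 7126 in the count files, whose gene name in the authors' deposited table begins with MRPL, MRPS, RSM or MRP followed by a digit, without MRP8. They fall into 34 MRPL genes of the large subunit, 20 genes of the small subunit (9 MRPS and 11 RSM) and 11 genes named MRP, whose names do not tell the subunit. Of the MRP genes 3 are known to belong to the large and 8 to the small subunit. All 65 have an entry in the RefSeq annotation of assembly R64, which is the build of the submitters' processing notes, and the coordinates below come from it.

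Mitochondrial ribosomes make the few proteins encoded by mitochondrial DNA, chiefly core subunits of the respiratory chain and of the ATP synthase. Nearly all of their own proteins are encoded in the nucleus, translated in the cytosol and imported, so their mRNAs leave the nucleus like any other. The large subunit joins amino acids and holds the exit tunnel, and the small subunit binds and decodes the mRNA. Some of these proteins have bacterial homologues and others occur only in mitochondria. In budding yeast these mRNAs are also the classic ligands of the RNA-binding protein Puf3.

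The samples come from Saccharomyces cerevisiae with an HTB-tagged Mip6, an RNA-binding protein that contacts the mRNA export receptor Mex67. Cells were either moved to 39 °C for 20 min or kept at 30 °C. All took up 4-thiouracil and were irradiated at 365 nm, and RNA crosslinked to Mip6 was sequenced (PAR-CLIP). The plus-strand and minus-strand samples of a temperature come from the same library and do not replicate each other, so the temperatures could not be tested against each other. Without input RNA or an untagged strain among the 4 samples, the amount of an mRNA and its crosslinking to Mip6 cannot be told apart in a read level.

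For each gene the reads of its own strand were taken from the plus-strand sample for genes whose systematic name ends in W and from the minus-strand sample for those ending in C. Own-strand reads numbered 6021128 at 39 °C and 10447922 at 30 °C over 6685 features whose name gives a strand. A member had a median of 796 own-strand reads at 39 °C (50 to 2832) and 1834 at 30 °C (160 to 4766). All 65 members passed the minimum of 20 reads over both libraries, as did 6162 features in all. CPM are own-strand reads scaled to the own-strand total of the library, and RPKM are CPM per kilobase of feature. Intervals are 95% exact intervals that treat reads as independent. They hold counting error alone, so a second pair of cultures could differ by more.

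Mitochondrial ribosomal protein genes as a whole gave a smaller part of the Mip6 reads after heat shock. Their share of own-strand reads was 1.02% at 39 °C (1.01 to 1.03, Clopper-Pearson) against 1.22% at 30 °C (1.22 to 1.23), a pooled log2 ratio of -0.26 (-0.28 to -0.25). The median log2 ratio of 39 °C over 30 °C was -0.25 over the 65 members and 0.015 over all 6162 features. Members below the median of all features numbered 57 of 65, where an even split holds over all features by definition. Of the members 30 lay under the lower quartile of all features (-0.28) and 0 above the upper quartile (0.33). The differences were small, since 0 members were at least 2-fold higher, where 4.82% of all features were, and 0 were at least 2-fold lower, where 2.26% were. At a ratio of 1.5-fold, a threshold chosen after the values were seen, 12 members were lower (18.5%, against 10.2% of all features) and 0 were higher (12.9% of all features). The 12 were 8 of 34 MRPL genes, 4 of 20 MRPS and RSM genes and 0 of 11 MRP genes, and with 11 genes a count of 0 is close to the share over all features.

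MRPL genes of the large subunit lay lower than MRPS and RSM genes of the small one. The ranges of the 2 sets overlapped over nearly their whole width, however. The 34 MRPL genes had a median log2 ratio of -0.33, from -0.92 to 0.05, and 33 of them were below the median of all features. The 20 MRPS and RSM genes had a median of -0.17, from -0.81 to 0.19, and 16 of them were below it. The difference of the medians was -0.16, smaller than the spread among the genes (SD 0.29 in the large and 0.32 in the small subunit). It was -0.10 without members that have at least 20% of their reads on the opposite strand and -0.10 over minus-strand genes alone. Pooled over all reads, the log2 ratio was -0.31 (-0.33 to -0.29) for the large and -0.23 (-0.25 to -0.20) for the small subunit. Of the reads on both sets, MRPL genes held 55.3% at 39 °C (54.9 to 55.8) and 56.7% at 30 °C (56.5 to 57.0). Whether the subunits differ between cultures was not testable with 1 library per temperature.

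Within the small subunit MRPS and RSM genes differed in median, but their ranges overlapped and each set had 2 genes at least 1.5-fold lower. RSM genes were also longer, with a median of 795 bases against 714 for MRPS, and the part of length was not tested. All 9 MRPS genes were below the median of all features, with a median log2 ratio of -0.22 (-0.81 to -0.05). The 11 RSM genes had a median of -0.01 (-0.80 to 0.19), and 7 of them were below it. The 11 MRP genes had a median of -0.24 (-0.48 to 0.20), and relative to all features they lay at -0.26. Over minus-strand genes alone that shift was -0.02. Placed by their known subunit, the 3 large-subunit MRP genes had a median of 0.02 and the 8 small-subunit ones of -0.27. With them included, the medians were -0.32 for 37 large-subunit genes and -0.21 for 28 small-subunit genes, a difference of -0.11.

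**Figure D1:**
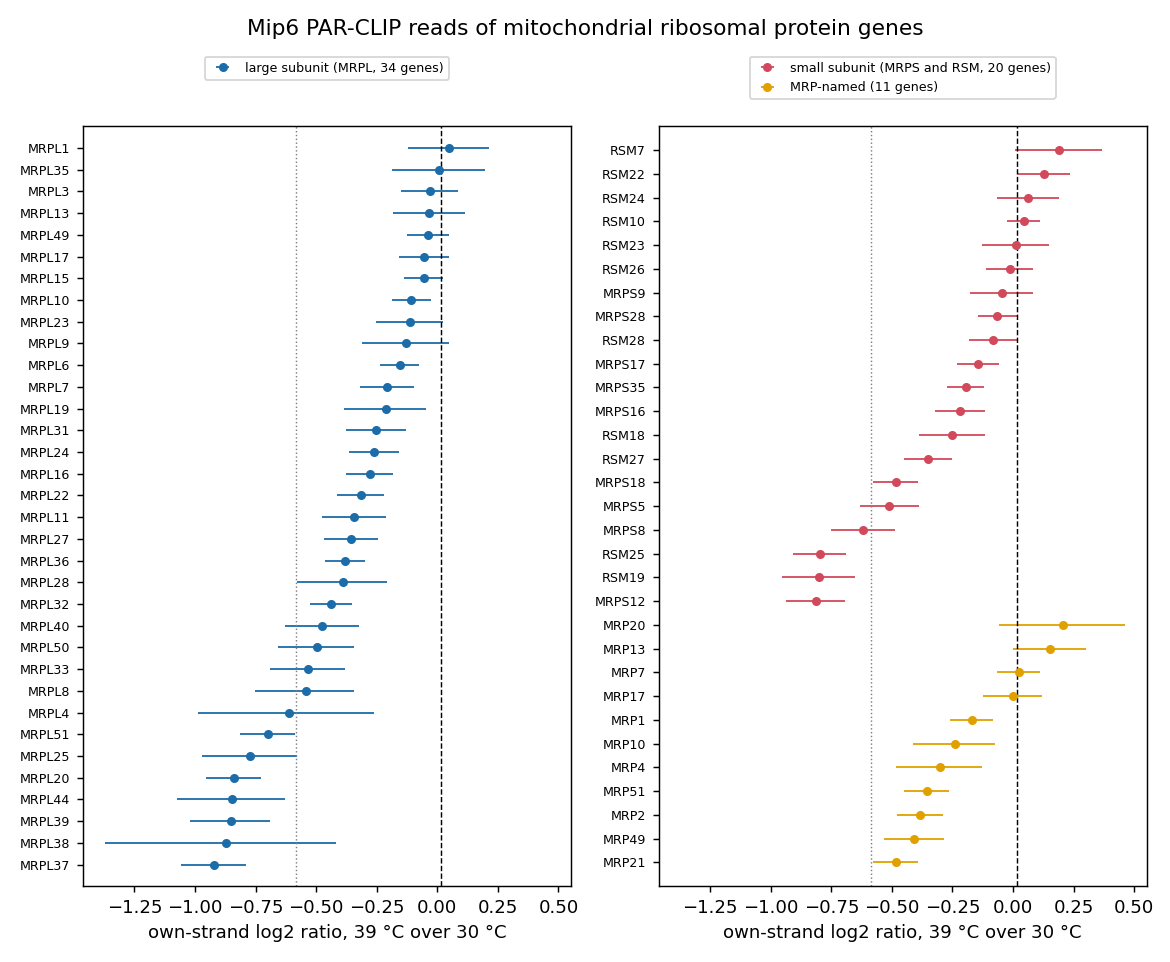
Own-strand log2 ratio of 39 °C over 30 °C (horizontal axis) for each of the 65 genes, with large-subunit genes on the left and small-subunit and MRP-named genes on the right. Points are ratios, bars are 95% counting intervals, the dashed line is the median of all tested features (0.015) and the dotted line marks 1.5-fold lower. Large-subunit genes run from -0.92 to 0.05 and small-subunit genes from -0.81 to 0.19.

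Among large-subunit genes the lowest ratios belonged to short reading frames. MRPL37 (YBR268W, chromosome II, 741299 to 741616), a mitochondrion-specific protein that RefSeq also names mL54, had 594 own-strand reads at 39 °C and 1956 at 30 °C, or 98.7 and 187 CPM. Its log2 ratio was -0.92 (-1.06 to -0.79). MRPL39 (YML009C, chromosome XIII, 251304 to 251516), the bL33m homologue of a bacterial protein and the shortest member, had 392 reads at 39 °C against 1230 at 30 °C, or 65.1 and 118 CPM. Its log2 ratio was -0.85 (-1.02 to -0.69). Both were past 1.5-fold lower and short of 2-fold.

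MRPL38 (YKL170W, chromosome XI, 130634 to 131050), the uL14m protein at the subunit interface, had 50 reads at 39 °C and 160 at 30 °C, or 8.30 and 15.3 CPM. Its log2 ratio of -0.87 had the widest interval of all members (-1.37 to -0.42), because it was the least read. MRPL44 (YMR225C, chromosome XIII, 720960 to 721403), the mitochondrion-specific mL53, had 220 reads at 39 °C against 688 at 30 °C, or 36.5 and 65.9 CPM, with a log2 ratio of -0.85 (-1.08 to -0.63). It is the only member whose annotated span (444 bases) exceeds its feature length (297 bases). The other MRPL genes at least 1.5-fold lower were MRPL20 with a log2 ratio of -0.84, MRPL25 with -0.77, MRPL51, which overlaps the annotated gene YPR099C, with -0.70 and MRPL4 with -0.61.

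At the other end of the large subunit, the 4 highest ratios had counting intervals that include no change. MRPL1 (YDR116C), the uL1m protein of the stalk through which spent tRNAs leave, had 472 reads at 39 °C and 793 at 30 °C, or 78.4 and 75.9 CPM, a log2 ratio of 0.05 (-0.12 to 0.21). MRPL35, the mitochondrion-specific mL38, had 59.8 CPM at 39 °C against 59.5 at 30 °C, and its log2 ratio was 0.007 (-0.19 to 0.20). MRPL3 (mL44) had 156 and 160 CPM, with -0.03 (-0.15 to 0.08), and MRPL13 (mL50) had 572 and 1016 reads, with -0.03 (-0.18 to 0.12). In the large subunit 25 of 34 counting intervals lay wholly below no change and 0 wholly above it, where 34.8% and 35.6% of all features did.

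In the small subunit 3 genes had the lowest ratios, and 2 of them are neighbours on the chromosome. MRPS12 (YNR036C, chromosome XIV, 694361 to 694822), the uS12m protein of the decoding centre, had 736 reads at 39 °C and 2245 at 30 °C, or 122 and 215 CPM, a log2 ratio of -0.81 (-0.94 to -0.69). RSM19 (YNR037C, chromosome XIV, 695052 to 695327), the uS19m protein, had 483 reads at 39 °C against 1461 at 30 °C, or 80.2 and 140 CPM, with a log2 ratio of -0.80 (-0.95 to -0.65). The genes lie 229 bases apart on the same strand, and no other members are next to each other in the annotation. RSM25 (YIL093C, chromosome IX, 187990 to 188784), the mitochondrion-specific mS23, had 899 reads at 39 °C against 2713 at 30 °C, or 149 and 260 CPM, with a log2 ratio of -0.80 (-0.91 to -0.69). MRPS8, the uS8m protein, followed with 108 CPM at 39 °C against 166 at 30 °C and a log2 ratio of -0.62 (-0.75 to -0.49).

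The 4 highest small-subunit ratios all belonged to RSM genes. RSM7 (YJR113C, chromosome X, 638232 to 638975), the uS7m protein, had 429 own-strand reads at 39 °C and 653 at 30 °C, or 71.2 and 62.5 CPM, a log2 ratio of 0.19 (0.01 to 0.37). RSM22 (YKL155C, chromosome XI, 159456 to 161342), which resembles rRNA methyltransferases and is the longest member, had 192 CPM at 39 °C against 176 at 30 °C, with 0.13 (0.02 to 0.24). RSM24 (mS35) had 132 and 127 CPM, with 0.06 (-0.07 to 0.19). RSM10, the uS10m protein, had 2832 reads at 39 °C and 4766 at 30 °C, the most of any member at both temperatures, or 470 and 456 CPM, with 0.04 (-0.02 to 0.11). Intervals wholly below no change numbered 11 of 20 in the small subunit (55.0%, against 34.8% of all features). Those wholly above it numbered 2, RSM7 and RSM22 (10.0%, against 35.6% of all features).

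Among the 11 MRP-named genes MRP21, the bS21m protein, was lowest with 220 CPM at 39 °C against 307 at 30 °C and a log2 ratio of -0.48 (-0.58 to -0.39), followed by MRP49 (mL61) with 128 and 169 CPM and -0.41 (-0.53 to -0.29). The highest ratios of all 65 members included MRP20 (YDR405W, chromosome IV, 1277646 to 1278437), the uL23m protein at the exit of the tunnel, with 207 reads at 39 °C and 312 at 30 °C. That is 34.4 and 29.9 CPM and a log2 ratio of 0.20 (-0.06 to 0.46). MRP13 (YGR084C, chromosome VII, 647123 to 648142), the mitochondrion-specific mS44, had 97.3 CPM at 39 °C against 87.6 at 30 °C, with 0.15 (0.00 to 0.30). Both carried many reads of the opposite strand, described below.

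Among lists of genes for protein synthesis, the median of the members lay between that of the cytosolic ribosome and those of the factors that serve the mitochondrial ribosome. The 132 genes of cytosolic ribosomal proteins had a median log2 ratio of -0.64, with 87 at least 1.5-fold lower and 131 below the median of all features. Of 15 mitochondrial ribosomal proteins that carry other names 14 were below the median of all features, with a median of -0.18 (-0.74 to 0.10), and 3 were 1.5-fold lower. In this set the order of the subunits was reversed. Its 9 large-subunit genes had a median of -0.17 (-0.74 to -0.06) and its 6 small-subunit genes of -0.33 (-0.68 to 0.10). In the large subunit RML2 had 230 CPM at 39 °C against 261 at 30 °C (log2 ratio -0.18) and MNP1 had 205 and 219 CPM (-0.10). In the small subunit NAM9 had 198 CPM at 39 °C against 222 at 30 °C (-0.16) and PET123 had 138 and 166 CPM (-0.27).

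The genes that serve the mitochondrial ribosome had medians nearer to that of all features, or above it. The 9 translation factor genes had a median log2 ratio of -0.12, with 5 below the median of all features. TUF1, the mitochondrial elongation factor Tu, had 537 CPM at 39 °C against 662 at 30 °C, with a log2 ratio of -0.30 (-0.36 to -0.24), while MEF1, an elongation factor G, had 211 and 174 CPM, with 0.28 (0.18 to 0.39). The 7 genes of ribosome assembly and rRNA modification had a median of -0.09, with 4 below the median of all features. The rRNA methyltransferase gene MRM1 had 179 and 191 CPM (-0.09), and RMD9 had 166 and 195 CPM (-0.23).

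The 13 genes of mitochondrial aminoacyl-tRNA synthetases had a median of 0.18, with 4 below the median of all features and 0 of them 1.5-fold lower. MSW1 had 204 CPM at 39 °C against 179 at 30 °C, with a log2 ratio of 0.18 (0.08 to 0.29) and opposite-strand reads of 28.0% and 30.2%. The synthetase gene MSY1 had 202 and 159 CPM, with 0.35 (0.24 to 0.46). The opposite strand held a median of 16.1% of synthetase reads at 39 °C and 9.47% at 30 °C, more than for the members, and its part in these ratios was not tested. The 15 translational activator genes, whose products act on single mitochondrial mRNAs, had a median of 0.12, with 5 below it. ATP22 had 346 and 247 CPM, with 0.49 (0.41 to 0.57), and AEP2 had 261 and 253 CPM, with 0.04 (-0.05 to 0.13). These genes are also longer, with median lengths of 1611 bases for synthetases and 1470 for activators against 714 for the members. Translation factor genes had a median of 1314 bases and assembly genes of 1239. Cytosolic ribosomal protein genes had 435 bases and mitochondrial ribosomal protein genes of other names 510. The part of length in the differences between the lists was not tested.

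**Figure D2:**
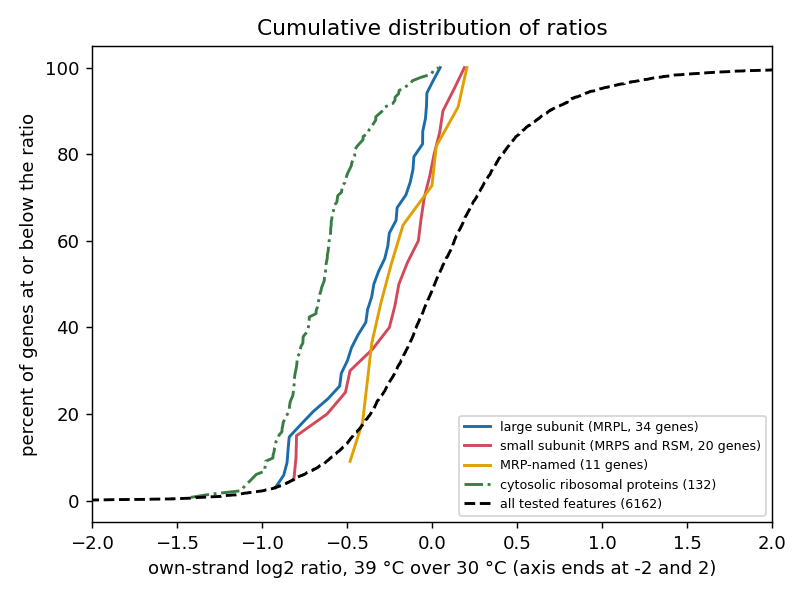
Percent of genes (vertical axis) at or below each own-strand log2 ratio of 39 °C over 30 °C (horizontal axis) for the 3 groups of mitochondrial ribosomal protein genes, cytosolic ribosomal proteins and all tested features. The medians are -0.33 (large), -0.17 (small), -0.24 (MRP-named), -0.64 (cytosolic ribosomal proteins) and 0.015 (all features).

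In level per kilobase the members were well read. Their median RPKM was 238 at 39 °C and 288 at 30 °C, against 84.8 and 82.7 for all tested features. The levels spanned 49.9-fold at 39 °C, from 15.4 RPKM for MRPL4 to 769 for RSM10. That span rests on MRPL4 and MRPL38 (19.9 RPKM) at the low end, and the next lowest member, MRP20, had 43.4 RPKM. The order of the genes was much the same at both temperatures, with a Spearman correlation of 0.95 across the 65 genes, which share both libraries, and 8 of the 10 highest genes at 39 °C were among the 10 highest at 30 °C. MRPL genes had a median of 223 RPKM at 39 °C and 255 at 30 °C, and MRPS and RSM genes of 264 and 341.

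RSM10 led at 39 °C with 769 RPKM (740.5 to 797) and had 745 (724 to 767) at 30 °C. MRP2, the uS14m protein, with 614 RPKM at 39 °C (581 to 649) and RSM27 (mS33) with 612 (578 to 647) came next, within each other's counting error. At 30 °C these 2 stood above RSM10, with 801 (772 to 830) and 780 (751 to 810) RPKM. The interval of RSM27 overlapped that of RSM10 there. MRPS16 had 519 RPKM at 39 °C and 604 at 30 °C, a log2 ratio of -0.22, and MRPS17 had 386 and 427, with -0.15.

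In the large subunit MRPL49 (bL21m) was highest at 39 °C with 576 RPKM (549 to 604), and it had 592 at 30 °C, a log2 ratio of -0.04. MRPL36 (bL31m) had 517 RPKM at 39 °C and 673 at 30 °C, with -0.38 (-0.46 to -0.30). MRPL6 (uL6m) had 496 and 552 RPKM, with -0.15, and MRPL32, the bL32m protein that is matured by a protease in the mitochondrion, had 462 and 625, with -0.44 (-0.52 to -0.35). Highly read members were thus found both near no change and among those with lower reads at 39 °C. At the low end MRPL4 had 15.4 RPKM (12.4 to 18.9) at 39 °C and 23.6 at 30 °C, and MRPL38 had 19.9 (14.8 to 26.3) and 36.7. Reads ambiguous between overlapping features were left out of the counts, so a low level can understate the reads of a gene, and how far it does here was not tested.

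Among other features the median ratio was lower in each class of more reads. Over all members it was higher in each such class, though hardly so from 1000 reads up. Members with 3000 own-strand reads and over in both libraries together had a median log2 ratio of -0.22 (27 genes), against -0.09 for other features. The 32 members of 1000 to under 3000 reads had -0.25, against 0.01, and the 6 with fewer had -0.58, against 0.19. The small subunit had 0 genes under 1000 reads, and its medians were -0.15 from 1000 to under 3000 reads and -0.17 from 3000 reads. With RPKM at 30 °C the Spearman correlation of the log2 ratio was -0.33 for members and -0.45 for other features. The 30 °C reads enter both values of that correlation.

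**Figure D3:**
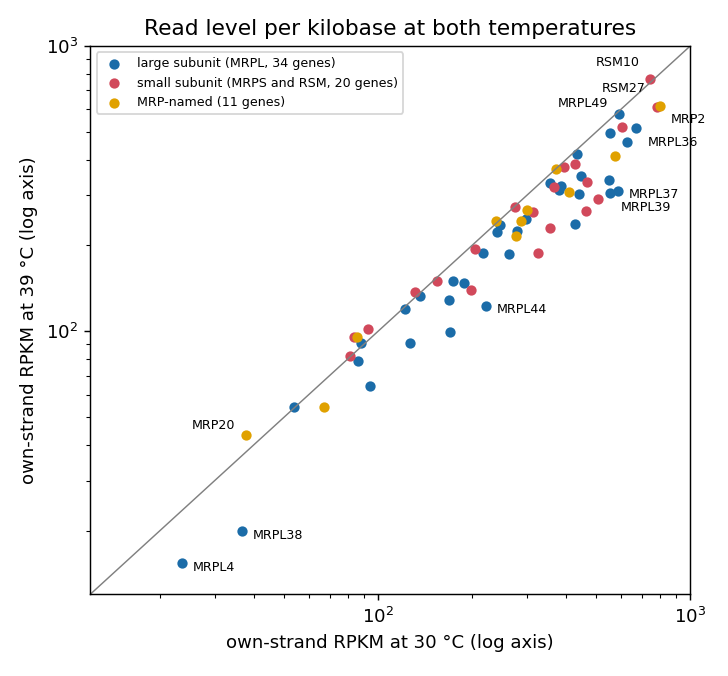
Own-strand RPKM of each of the 65 genes at 39 °C (vertical log axis) against 30 °C (horizontal log axis), with the line of equal level. Levels run from 15.4 to 769 RPKM at 39 °C, and MRPL37, MRPL39 and MRPL44 lie below the line while RSM10 and MRP20 lie just above it.

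Ratios went with the length of the reading frame. Across the 65 members the Spearman correlation of log2 ratio with feature length was 0.55, and it was 0.62 over the 34 MRPL genes and 0.56 over the 20 MRPS and RSM genes. It was 0.17 over 6097 other tested features and -0.19 over the 132 cytosolic ribosomal protein genes. These are descriptions across genes that share both libraries, and genes are not independent replicates. Members under 500 bases had a median log2 ratio of -0.40 (24 genes), those from 500 to under 800 bases -0.28 (17 genes) and those of 800 bases and over -0.07 (24 genes). The other features of the same classes had medians of -0.09, -0.16 and 0.07. Under 500 bases 9 of 24 members were at least 1.5-fold lower (37.5%), against 18.9% of other features. In the longer classes the counts were close to the share of other features for so few genes. They were 2 of 17 (11.8%) against 17.4% from 500 to under 800 bases and 1 of 24 (4.2%) against 6.2% from 800 bases.

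The subunits differ in length, with a median of 616.5 bases for MRPL and 769.5 for MRPS and RSM genes. Under 500 bases the median log2 ratios were -0.52 for 14 MRPL genes and -0.48 for 6 small-subunit genes. From 500 to under 800 bases they were -0.31 for 10 and -0.15 for 5 genes, and from 800 bases they were -0.12 for 10 and -0.05 for 9 genes. Taken relative to other features of the same length class, a comparison added after the data were seen, the medians were -0.24 for the large and -0.15 for the small subunit, and their difference was -0.10. The part of length in the difference between the subunits was not tested further.

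**Figure D4:**
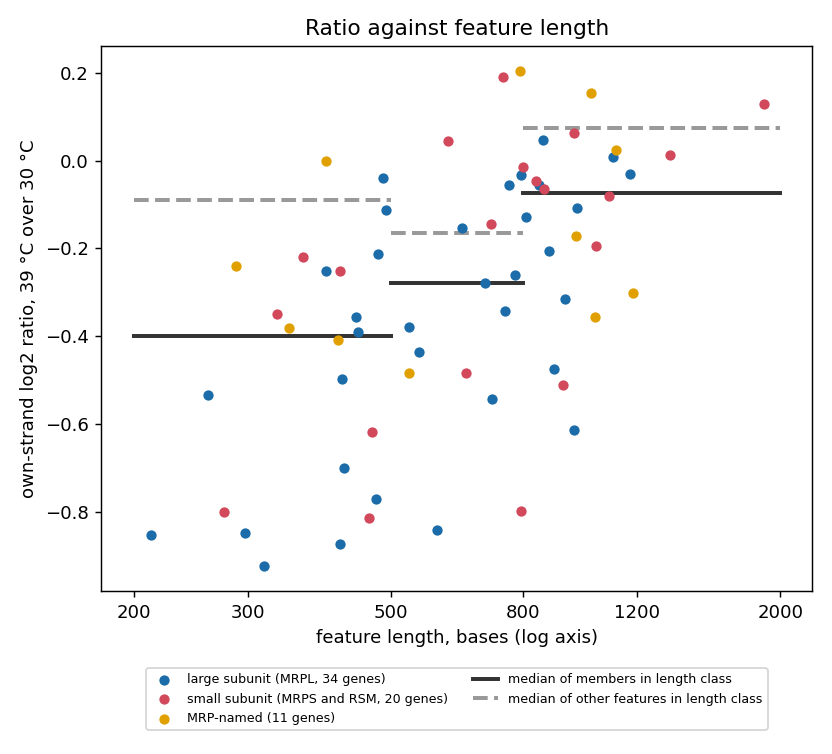
Own-strand log2 ratio of 39 °C over 30 °C (vertical axis) against feature length in bases (horizontal log axis) for the 65 genes, with the median of members (solid) and of other features (dashed) in 3 length classes. Member medians are -0.40 under 500 bases, -0.28 from 500 to under 800 and -0.07 from 800 bases, against -0.09, -0.16 and 0.07 for other features.

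Split by the evolutionary origin of the proteins, the median ratios lay close together over both subunits. The 39 members with a bacterial homologue had a median log2 ratio of -0.28 and the 24 mitochondrion-specific ones of -0.22, with RSM22, which resembles methyltransferases, and MRP51 left out of the split. With MRP-named genes placed in their subunits, the 14 specific large-subunit genes had a median of -0.37 and the 10 specific small-subunit genes of -0.13. Members with homologues had -0.28 in both subunits, over 23 large-subunit genes (median length 717 bases) and 16 small-subunit genes (573 bases). The specific large-subunit genes are short, with a median of 459 bases, and the specific small-subunit genes long, with 963 bases, so origin and length cannot be told apart in this split.

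Reads on the strand opposite the gene were few for most members. Their median share was 5.5% at 39 °C and 3.8% at 30 °C, against 8.1% and 6.0% over all tested features. The share was higher at 39 °C for 64 of 65 members and for 80.0% of all tested features, and over all features opposite-strand reads made up 11.4% of reads at 39 °C and 8.62% at 30 °C. In 5 members the share reached 20% at either temperature (7.7%, against 25.3% of tested features).

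MRP20 had 106 opposite-strand reads at 39 °C and 38 at 30 °C, so that the opposite strand held 33.9% and 10.9% of its reads. MRP13 had 159 and 78, or 21.3% at 39 °C and 7.9% at 30 °C. Both therefore had more opposite-strand reads at 39 °C in the smaller library, with log2 ratios of 2.26 (1.73 to 2.85) for MRP20 and 1.82 (1.42 to 2.23) for MRP13. MRPL44 had 39.9% and 26.1% of its reads on the opposite strand and MRPL25 had 29.5% and 16.6%, with opposite-strand log2 ratios of 0.06 (-0.25 to 0.36) and 0.30 (-0.05 to 0.65).

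RSM7 was the exception, with 83 opposite-strand reads at 39 °C and 269 at 30 °C, or 16.2% and 29.2%, a log2 ratio of -0.90 (-1.27 to -0.54), beside an own-strand ratio of 0.19. The median of opposite-strand log2 ratios was 0.44 over the 6037 tested features with at least 20 such reads and 0.30 over the 64 members among them.

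**Figure D5:**
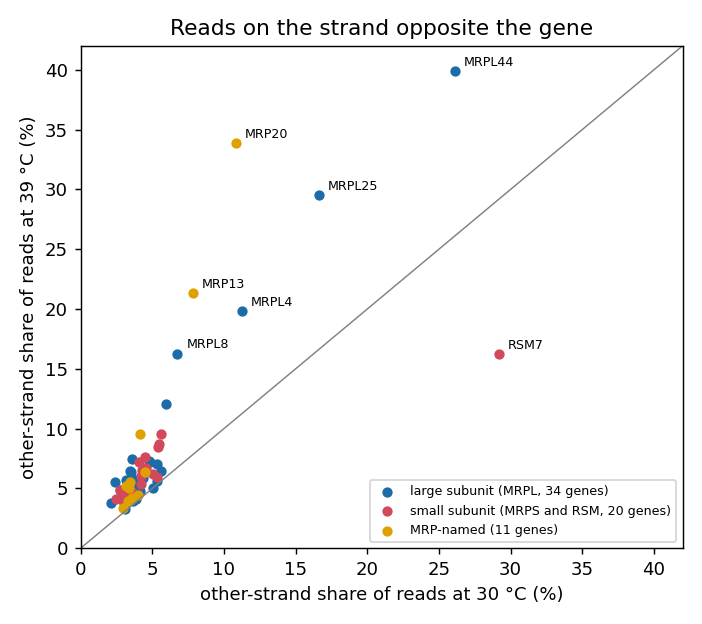
Share of a gene's reads on the strand opposite the gene, in percent, at 39 °C (vertical axis) against 30 °C (horizontal axis) for the 65 genes, with the line of equal share. MRPL44 (39.9% at 39 °C), MRP20 (33.9%) and MRPL25 (29.5%) stand highest, and RSM7 is the member below the line.

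The authors' deposited table gives its own comparison of the same libraries. Its log2 ratio runs as 30 °C over 39 °C, as read from its sign against the counts, and with the sign turned it went with the own-strand log2 ratio with a Pearson correlation of 0.814 over 6657 features and 0.990 across the 65 members. By the authors' deposited table, 8 members have a probability above 0.9 and lower reads at 39 °C (12.3%, against 5.11% of features), namely MRPL20, MRPL37, MRPL39, MRPL44, MRPL51, MRPS12, RSM19 and RSM25. Members with such a probability and higher reads at 39 °C number 0 in the authors' deposited table (3.05% of features). All 8 are among the 12 members at least 1.5-fold lower by own-strand reads, and 5 are MRPL genes and 3 small-subunit genes.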

How the data were processed

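Per the submitters' processing notes, reads were processed with Bowtie 1.1.1 and HTSeq on the builds sacCer3 and R64. The sources used here do not give their filters, strand setting, annotation or treatment of duplicate reads. The authors deposited unnormalized read counts for each feature and strand. Their 5 summary rows (reads in no feature 22.3% to 24.7%, ambiguous reads 3.92% to 13.3% of each sample) were left out. The authors' deposited table holds a log2 ratio and a probability, a score of their comparison and not a p-value, and feature lengths. Its 2 columns of values per library match no label and were not used, and its sign was set from its correlation with the counts.

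Ratios were computed after adding 0.5 to each count, with totals over own-strand reads. Ratio intervals are exact conditional binomial, those of shares Clopper-Pearson and those of levels exact Poisson. A count of 0 allows up to 0.498 CPM at 39 °C and 0.287 CPM at 30 °C, taken as 3 counts. The calculation was tested on simulated data with independent Poisson reads and changes larger than those of the members. Such data hold no variation between cultures, so that test covers the arithmetic only. Alternatives used edgeR 4.0.16 (TMM factors) and DESeq2 1.42.0 (size factors), only for scaling. Computation used Python 3.11.15, pandas 2.3.3 and scipy 1.17.1.

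The members, lists and tests were chosen with earlier results of these data known. Full values were given for the 4 highest and 4 lowest ratios in each subunit, the 2 highest and 2 lowest MRP-named genes, the 4 highest levels in each subunit at 39 °C, and the 2 most read genes of each comparison list, among members with at least 50 reads. Sequences near the genes were not analysed here.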

Additional observations from a re-analysis of the deposited data

Results flagged for a closer look

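Opposite-strand reads, which are outside the own-strand ratios, made up at least 20% of the reads of 5 genes at either temperature. The share was 39.9% at 39 °C (34.8 to 45.1, 95% Clopper-Pearson) against 26.1% at 30 °C (23.3 to 29.0) for MRPL44. It was 33.9% at 39 °C (28.6 to 39.4) for MRP20, 29.5% (25.1 to 34.2) for MRPL25 and 21.3% (18.5 to 24.5) for MRP13. For RSM7 it was 29.2% at 30 °C (26.3 to 32.2). Intervals cover counting error only.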

How the results depend on the processing

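The median shifts against all features (-0.34 large, -0.19 small, -0.26 MRP-named, -0.27 all members) kept their sign under all alternatives run. These were both strands summed, TMM or DESeq2 scaling, totals per strand, read minimums of 0 and 200, a pseudocount of 5, MRP genes placed in subunits, removal of members with opposite-strand reads or overlaps, each strand alone, and features of the same length class. The large-subunit shift ran from -0.37 to -0.24, the small from -0.22 to -0.15 and the difference between them from -0.21 to -0.10. The removal of overlaps took out only the 3 members that overlap another gene of the RefSeq annotation, MRP4, MRPL19 and MRPL51. It therefore left the MRPS and RSM genes as they were. Overlapping reading frames missing from that annotation were not covered, so that setting cannot show whether the shifts depend on them. No setting compared members with features of the same read class. From 3000 reads up the median log2 ratios were -0.27 (large), -0.17 (small) and -0.09 (other features). From 1000 to under 3000 reads they were -0.34, -0.15 and 0.01. With minus-strand genes alone the MRP-named shift was -0.018. The small-subunit pooled log2 ratio was -0.17 with plus-strand genes alone and -0.30 with minus-strand genes alone, and the number of members 1.5-fold lower was 5 and 7 by the same split, which has fewer genes. The counts of 2-fold higher and 2-fold lower members were 0 in all 12 settings run for them. No paired analysis was possible because there is 1 library per temperature, and no difference between cultures can be estimated.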
